A study of Mus musculus with 20 samples.

Results

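The interferon-β gene, its receptor and the TRIF branch of Toll-like receptor 4 (TLR4) signalling were followed as 7 genes, Ifnb1, Ticam1, Ticam2, Tbk1, Ikbke, Ifnar1 and Ifnar2, which were selected by symbol from a table of 24888 genes. All 7 were found. Of these, 6 passed the threshold used for expressed genes, a mean above 3 RPKM (reads scaled to gene length and library depth) in WT cells at any time point, as did 2980 genes in all, and Ticam2 lay below it.

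Nascent, chromatin-associated RNA was sequenced from bone-marrow-derived macrophages (BMDMs) of C57BL/6 wild-type (WT) mice and of Rel-/- mice on the same background, which lack the NF-κB subunit Rel. Cells were unstimulated or were treated with lipid A, the TLR4-activating moiety of bacterial lipopolysaccharide, for 0.5, 1, 2 or 6 h, with 2 replicates at every combination of genotype and time, 10 groups in all. Mice were male and 8 to 10 weeks old by the methods and by the animal section of the reporting summary, whose section on randomization gives 10 to 12 weeks, marrow of 2 to 4 mice was pooled, and cells were differentiated in culture for 6 days with CMG. All 20 libraries share this strain, sex and culture, the 2 replicates were independent time courses in which WT and Rel-/- cells were handled in parallel, and the part of Rel removed by the mutation is not given in the sources used here. Depth recovered from the values ranged from 21094000 to 45439000 reads per library.

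TLR4 signals from the plasma membrane through the adaptor MyD88 and, after endocytosis, through the adaptor TRIF. TRIF, with its bridging adaptor TRAM, recruits the kinases TBK1 and IKKε, which phosphorylate the transcription factor IRF3, and IRF3 acts with NF-κB and other factors at the Ifnb1 promoter. Secreted interferon-β then binds the IFNAR1 and IFNAR2 receptor chains on the same or neighbouring macrophages, and the kinases JAK1 and TYK2 pass the signal to transcription factors that include STAT2 and IRF9, which switch on interferon-responsive genes.

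Ifnb1 is an intronless gene on the minus strand of chromosome 4, in NCBIM37 at chr4:88167929-88168698, and its 770 bases make it the shortest of the 7 genes. The 250 bases upstream of its RefSeq start (GRCm38.p6, chr4:88522795-88523044, minus strand, read 5′ to 3′) are shown because they hold the classical targets of the pathway, letters that NF-κB and IRF proteins recognize. Capitals mark matches to GGG and CC with any 5 bases between them (NF-κB) or to AANNGAAA (IRF core) on either strand.
Ifnb1: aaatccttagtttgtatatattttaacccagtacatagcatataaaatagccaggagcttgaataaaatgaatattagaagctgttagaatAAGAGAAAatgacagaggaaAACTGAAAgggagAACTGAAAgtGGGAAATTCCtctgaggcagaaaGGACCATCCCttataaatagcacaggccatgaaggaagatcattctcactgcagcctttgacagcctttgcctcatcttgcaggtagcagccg
NF-κB letters occurred 2 times, as GGGAAATTCC at positions -116 to -107 from the start and as GGACCATCCC, a match on the opposite strand, at positions -93 to -84. At least 2 such matches were found in 23.2% of the 32851 promoters of the RefSeq set over the same 250 bases, and at least 1 in 45.8%, so these letters are common. IRF core letters occurred 3 times on the same strand, as AAGAGAAA and 2 copies of AACTGAAA, and 0.849% of promoters held 3 or more. No 2 of these matches overlapped. TGACGTCA (CRE) and TGANTCA (AP-1), which were in 1.55% and 6.75% of promoters, were not in this window on either strand, and TATAAA, in 12.4% of promoters, occurred 2 times. Promoters of 5 other members were in the set. Ikbke had 1 IRF core match (TTTCCCTT, opposite strand) and no NF-κB match, Tbk1 had 2 NF-κB matches, Ticam1 had 1, and Ifnar1 and Ifnar2 had neither. The Ifnb1 window was 39.6% G and C, against a median of 52.4% over all promoters.

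The labels were checked before the comparisons. Rel itself was measured over its whole gene body and did not separate the genotypes: at 1 h its replicates stood at 10.3 and 18.0 RPKM in WT cells, against 15.6 and 16.2 RPKM in Rel-/- cells. Reads over the whole gene therefore check nothing about the mutation, whose position is not known here, although 29 of the 2980 expressed genes differed between genotypes at 1 h. Of 8 macrophage markers, 5 were above 1 RPKM in all 20 libraries, and the summed macrophage markers ranged from 46.5 to 202 RPKM in WT and from 67.7 to 163 RPKM in Rel-/- cells, with Cd14 the highest by its mean over libraries (4.24 to 83.0 RPKM in WT and 4.47 to 52.5 RPKM in Rel-/- libraries, highest at 0.5 h). In bulk RNA, fewer cells of a type and less RNA per cell cannot be told apart. Summed markers did not exceed 1.32 RPKM for neutrophils, 0.323 RPKM for T cells, 0.0922 RPKM for B cells and 0.0189 RPKM in WT for stromal cells (0.0190 RPKM in Rel-/- cells), and all 3 erythroid markers stayed at or under 3 reads. The dendritic cell list reached 24.8 RPKM, nearly all of it from Bst2, which is itself interferon-responsive.

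The libraries of WT replicate 2 stood apart from those of WT replicate 1. Before stimulation, all 12 interferon-responsive genes of a fixed list (such as Ifit1, Mx1 and Irf7) were higher in WT replicate 2, by a median of 12.1-fold and by 6.05-fold to 28.0-fold, while the median expressed gene was 1.16-fold higher. Mx1, an antiviral GTPase chosen as an example after its values were seen, was at 1.46 and 31.4 RPKM in WT replicates 1 and 2 at 0 h. Cell type markers were also higher in WT replicate 2 at 0 h. Their sums in replicates 1 and 2 were 59.5 and 177 RPKM for macrophages, 2.76 and 10.1 RPKM for dendritic cells (nearly all Bst2), 0.118 and 1.32 RPKM for neutrophils, 0.0235 and 0.323 RPKM for T cells and 0.0370 and 0.0922 RPKM for B cells. The gap of the interferon-responsive genes persisted at 0.5 h (median 11.2-fold) and 1 h (9.50-fold) and was 1.53-fold at 2 h. Rel-/- replicate 2 was also above replicate 1 at 0 h in 12 of 12 genes, by a median of 3.85-fold. Ifnb1 could not be compared at 0 h, with 2 reads in each WT library, and at 0.5 h it was 14.7-fold higher in WT replicate 2. WT replicate 1 differed in another way, since the ribosomal RNA precursor Rn45s took 11.0% to 17.9% of its reads against 1.56% to 6.00% in the other 15 libraries. The part of these differences in the results below was not tested, and counts of members called without each time course are given with the calls.

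**Figure D1:**
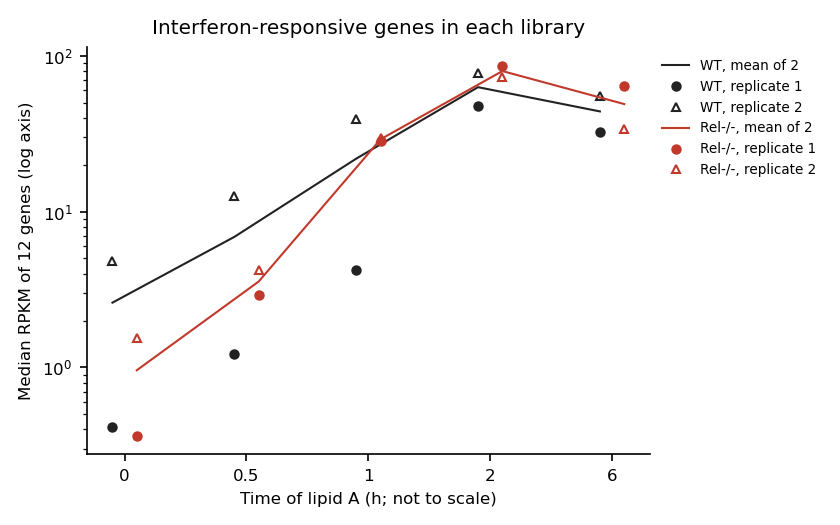
Median RPKM of the 12 interferon-responsive genes in each library (log axis) by time of lipid A treatment, with WT in black, Rel-/- in red, replicate 1 as filled circles, replicate 2 as open triangles and lines through the means of 2. At 0 h the WT medians were 0.417 and 4.79 RPKM in replicates 1 and 2, and at 2 h they were 47.6 and 78.0 RPKM.

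Changes were tested with limma on log2(RPKM + 0.1), with p-values adjusted by Benjamini-Hochberg over the 2980 expressed genes. Among the 6 expressed members, in WT cells 2 were higher than at 0 h at 0.5 h (14.1% of all expressed genes were), 3 at 1 h (16.3%), 3 at 2 h (22.0%) and 3 at 6 h (15.2%). In Rel-/- cells 3 were higher at 0.5 h (13.9%), 3 at 1 h (16.6%), 3 at 2 h (22.7%) and 3 at 6 h (19.5%). Which members these were changed with time. Ifnb1 and Ticam1 were called at 0.5 and 1 h in both genotypes, Ifnb1, Tbk1 and Ikbke at 2 h, and Tbk1, Ikbke and Ifnar1 at 6 h. Ikbke was also called at 1 h in both genotypes and at 0.5 h in Rel-/- cells. Over the 24 results of each genotype these are 11 calls in WT and 12 in Rel-/- cells. Without WT replicate 1 or 2 they numbered 9 or 14 in WT and 18 in Rel-/- cells either way, and without Rel-/- replicate 1 or 2 they numbered 3 in WT and 0 in Rel-/- cells either way, since a genotype left with 1 library per group adds nothing to the estimated spread and is assumed to vary like the other. With only the libraries compared in the fit, the WT calls came to 1, Ifnb1 at 1 h, and all other WT calls were lost, for example Ifnb1 at 0.5 h (limma adjusted p = 0.0906), Ikbke at 2 h (0.0770) and Ticam1 at 0.5 h (0.132), while 15 were made in Rel-/- cells. The median expressed gene moved by between -0.10 and -0.33 log2 units against 0 h in the 8 comparisons, and the changes below stand beside that shift.

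Ifnb1, the ligand, was nearly silent, rose within 0.5 h and was nearly silent again by 6 h in WT cells. In WT replicates 1 and 2 its level was 0.0705 and 0.0718 RPKM at 0 h, 1.77 and 26.0 RPKM at 0.5 h, 11.4 and 12.4 RPKM at 1 h, 1.09 and 0.521 RPKM at 2 h, and 0.0616 and 0.0451 RPKM at 6 h. All 4 WT libraries at 0 and 6 h held 1 or 2 Ifnb1 reads, and no library listed any gene under 1 read, so a listed 1 read may stand for 0. The replicates agreed at 1 h but not at 0.5 h, where 32 and 731 reads were counted. From 0.5 to 1 h the level went up 6.43-fold in replicate 1 and to 0.477-fold in replicate 2, so the time of the peak in WT cells differed between replicates. In Rel-/- replicates 1 and 2 the level was 0.0473 and 0.0632 RPKM at 0 h, 7.99 and 4.14 RPKM at 0.5 h, 25.2 and 8.15 RPKM at 1 h, 1.45 and 1.11 RPKM at 2 h, and 0.296 and 0.295 RPKM at 6 h. Both Rel-/- replicates were highest at 1 h.

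Against a floor of 3 reads per library at 0 h, mean Ifnb1 was at least 130-fold higher at 0.5 h and at least 111-fold higher at 1 h in WT cells, and at least 51.2-fold and 141-fold higher in Rel-/- cells. The WT limit at 0.5 h rested on replicate 2: replicate by replicate it was 16.7-fold and 241-fold in replicates 1 and 2, against 108-fold and 115-fold at 1 h. In Rel-/- replicates 1 and 2 the limits were 56.3-fold and 43.6-fold at 0.5 h and 178-fold and 85.9-fold at 1 h. Fitted log2 changes were 5.35 ± 0.88 (SE, n = 2 per group), 6.13 ± 0.88 and 2.33 ± 0.88 at 0.5, 1 and 2 h in WT cells (limma adjusted p = 0.000583, 0.000186 and 0.0448). In Rel-/- cells they were 5.24, 6.54 and 3.15 with the same SE (limma adjusted p = 0.000764, 0.000161 and 0.0104). The 2 h call was lost with a pseudocount of 1 RPKM in both genotypes, and in both without Rel-/- replicate 1 or 2. In WT cells it was also lost without an expression threshold (limma adjusted p = 0.0881) and with only the libraries compared (0.115). The WT call was lost as well without WT replicate 1, where the log2 change was 1.85. Between 1 and 2 h Ifnb1 fell in both genotypes, by 3.80 log2 units in WT cells and by 3.40 in Rel-/- cells (limma adjusted p = 0.0103 and 0.0141). The WT call was lost with only the libraries compared (0.246) and without Rel-/- replicate 1 (0.0926) or 2 (0.0911), and the Rel-/- call was lost without Rel-/- replicate 1 (0.461) or 2 (0.350). At 6 h the log2 change against 0 h was -0.16 in WT cells and 1.35 in Rel-/- cells, and neither passed (limma adjusted p = 0.901 and 0.227). The Rel-/- value passed with only the libraries compared (limma adjusted p = 0.0183) and without WT replicate 1 or 2 (0.0464 either way).

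**Figure D2:**
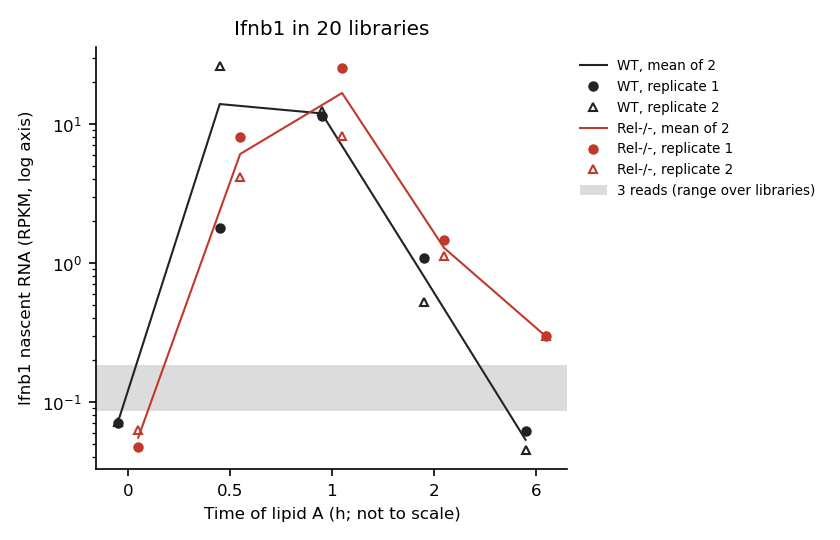
Ifnb1 RPKM (log axis) in each of the 20 libraries by time of lipid A treatment, with WT in black, Rel-/- in red, replicate 1 as filled circles, replicate 2 as open triangles, lines through the means of 2 and a grey band at the level of 3 reads. The WT replicates were 1.77 and 26.0 RPKM at 0.5 h, and the Rel-/- libraries at 6 h (0.296 and 0.295 RPKM) lay above the band while the WT libraries at 6 h lay below it.

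Ifnb1 stood alone among type I interferon genes in these cells. Of the 17 others in the table, 14 did not exceed 3 reads in any WT library, and 14 did not in any Rel-/- library. Ifna4, which encodes an interferon-α that can be made early, reached the most, 15 reads in a WT and 11 reads in a Rel-/- library. The neighbouring interferon row Ifna15 lies 34878 bp from Ifnb1, and no other row of the table overlapped Ifnb1.

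The 5 expressed genes whose log2 values ran most like those of Ifnb1 over the 20 libraries were Tlr2 (Pearson r = 0.920), Ankrd33b (0.900), Elp5 (0.889), Zhx2 (0.886) and Fam129a (0.886). Among the factors that act at its promoter, Nfkb1 (r = 0.835) and Rela (0.834) ranked 35 and 36 of the expressed genes, whereas r was -0.06 for Irf3 and -0.29 for Irf7. Of the other members Ticam1 was nearest (0.599) and Ifnar2 was opposite (-0.58). These values are descriptions, since the 20 libraries share time points and time courses.

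Ticam1, which encodes TRIF, rose early and fell by 2 h in both genotypes. It lies on chromosome 17 at chr17:56408885-56416190. In WT replicates 1 and 2 it was at 1.71 and 1.34 RPKM at 0 h, 3.31 and 4.29 at 0.5 h, 3.53 and 2.42 at 1 h, 1.56 and 0.853 at 2 h and 3.17 and 2.32 at 6 h. Rel-/- replicates gave 1.69 and 1.24 RPKM at 0 h, 5.27 and 4.34 at 0.5 h, 3.62 and 3.58 at 1 h, 1.26 and 1.23 at 2 h and 2.55 and 2.58 at 6 h. In each genotype the 0.5 and 1 h libraries were all above those at 0 and 2 h. The log2 change against 0 h was 1.26 ± 0.31 (SE, n = 2 per group) at 0.5 h in WT and 1.66 ± 0.31 in Rel-/- cells (limma adjusted p = 0.00760 and 0.00161), and at 1 h it was 0.91 and 1.26 (limma adjusted p = 0.0356 and 0.00745). From 1 to 2 h Ticam1 fell by 1.27 and 1.46 log2 units (limma adjusted p = 0.0137 and 0.00488). The WT call was lost with only the libraries compared (0.362), and both calls were lost without Rel-/- replicate 1 or 2 (lowest limma adjusted p = 0.137). Ifnb1 and Ticam1 were the 2 of 6 members that fell in this step in each genotype, against 9.30% of expressed genes in WT and 14.3% in Rel-/- cells.

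The later rise of Ticam1, from 2 to 6 h, was 1.16 log2 units in WT cells (limma adjusted p = 0.0393), the 1 member of 6 that rose in this step (4.60% of expressed genes did). The WT call was lost without WT replicate 2 (limma adjusted p = 0.0667), with quantile normalization (0.0562), without an expression threshold (0.0574), with only the libraries compared (0.333) and without Rel-/- replicate 1 (0.278) or 2 (0.279). The same step was 0.99 in Rel-/- cells, where 0 of 6 members passed and 4.43% of expressed genes did. The limma adjusted p of that value was 0.0724, and 0.0281 when blocked on replicate number. It also passed with a block of each time course (0.0183), with only the libraries compared (0.0268) and without WT replicate 1 (0.00916) or 2 (0.00875). The 6 h level against 0 h, 0.80 and 0.78 log2 units higher in WT and Rel-/- cells, did not pass (limma adjusted p = 0.0639 and 0.0563) and passed with the block (0.0262 and 0.0242) and with quantile normalization (0.00528 and 0.00187). The WT value also passed without WT replicate 2 (0.0415), and the Rel-/- value without either WT replicate (0.00895 and 0.00862) and with only the libraries compared (0.0247). From 2 to 6 h Ifnb1 changed by -2.49 log2 units in WT and -1.79 in Rel-/- cells. Neither passed (limma adjusted p = 0.112 and 0.256). With a pseudocount of 0.01 RPKM the WT change was -3.60 and passed (0.0333). The Rel-/- change passed with only the libraries compared (0.0119), as did that of Ifnar1 (0.68, 0.0426 against 0.271). Without WT replicate 2 the WT change was -2.88 for Ifnb1, and 1.04 against 0.63 for Ifnar1. Between 0.5 and 1 h none of the 6 members passed in either genotype, against 11.7% of expressed genes in WT and 15.9% in Rel-/- cells. Ifnar1 in WT cells (0.68 log2 units) passed in this step with a block of each time course (limma adjusted p = 0.0419) and without WT replicate 1 (0.0275), and Ikbke in Rel-/- cells (0.68) passed without WT replicate 1 (0.0446) or 2 (0.0466). From 1 to 2 h Tbk1 in Rel-/- cells (0.55) passed with that block (0.0474) and without WT replicate 1 (0.0215) or 2 (0.0236).

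Ticam2, which encodes the bridging adaptor TRAM, showed a different early course from Ticam1, with a dip at 0.5 h and its high point at 1 h in most time courses. It lies on chromosome 18, between 46717885 and 46734187. WT replicates 1 and 2 gave 0.729 and 2.79 RPKM at 0 h, 0.212 and 0.922 at 0.5 h, 1.34 and 2.46 at 1 h, 1.14 and 0.723 at 2 h and 1.08 and 0.918 at 6 h. Rel-/- replicates gave 1.40 and 1.52 RPKM at 0 h, 0.671 and 0.783 at 0.5 h, 2.95 and 2.54 at 1 h, 0.846 and 0.575 at 2 h and 1.06 and 1.17 at 6 h. The level went down from 0 to 0.5 h and up from 0.5 to 1 h in all 4 time courses. Tested over all 24888 genes, since Ticam2 was under the expression threshold, no comparison of it passed in the fit without a block. The nearest were the step from 0.5 to 1 h in Rel-/- cells (log2 change 1.78, limma adjusted p = 0.0990, a step in which 6.18% of all genes passed), the step from 1 to 2 h in Rel-/- cells (-1.83, limma adjusted p = 0.0911, 6.81%) and 0.5 h against 0 h in WT cells (-1.46, limma adjusted p = 0.0958, 23.5%). With a replicate block of each time course both Rel-/- steps passed (limma adjusted p = 0.0480 and 0.0444), and with only the libraries compared they did too (0.0377 and 0.0313). Without WT replicate 1 or without WT replicate 2 the decrease from 0 to 0.5 h passed in both genotypes, and so did the increase from 0.5 to 1 h (limma adjusted p between 0.00183 and 0.0243). The ratio of Ticam1 to Ticam2, both per length, was 15.6 and 4.66 in WT replicates 1 and 2 at 0.5 h, against 2.34 and 0.480 at 0 h, and 7.86 and 5.54 in Rel-/- replicates against 1.21 and 0.812. It was higher at 0.5 h than at 0 h in all 4 time courses, with the WT replicates far apart at both times.

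**Figure D3:**
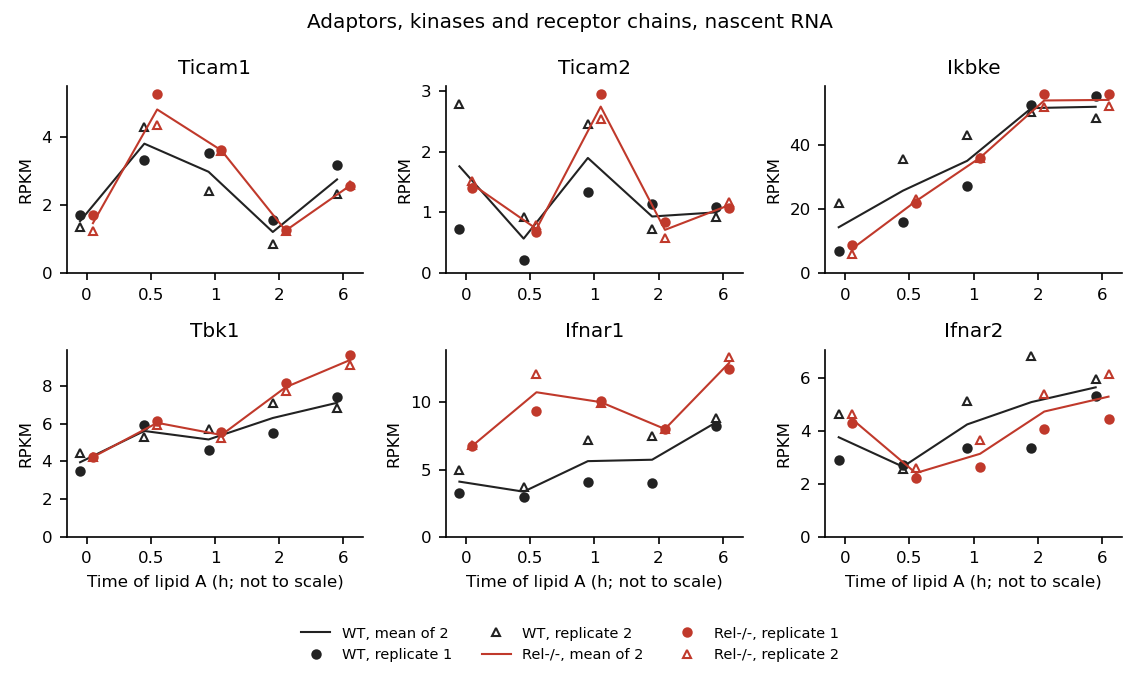
RPKM of the 2 adaptors, 2 kinases and 2 receptor chains by time of lipid A treatment, each panel from 0 on a linear axis, with WT in black, Rel-/- in red, replicate 1 as filled circles, replicate 2 as open triangles and lines through the means of 2. Ticam1 was highest at 0.5 h by mean, Ikbke rose to 51.6 and 54.0 RPKM at 2 h, and Ifnar1 was above WT in all Rel-/- libraries at every time point.

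Ikbke, which encodes the inducible kinase IKKε, had the highest level of the 7 genes in every group, per length and by mean. In unstimulated Rel-/- cells and in WT cells at 0.5 h its replicates overlapped those of the next gene. It lies on chromosome 1 at chr1:133151179-133176140. WT replicates 1 and 2 gave 6.82 and 21.8 RPKM at 0 h, 15.8 and 35.7 at 0.5 h, 27.1 and 43.1 at 1 h, 52.7 and 50.5 at 2 h and 55.5 and 48.5 at 6 h. Rel-/- replicates gave 8.83 and 6.09 RPKM at 0 h, 21.9 and 23.1 at 0.5 h, 36.1 and 36.1 at 1 h, 55.9 and 52.0 at 2 h and 56.0 and 52.3 at 6 h. WT replicate 2, the culture with high interferon-responsive genes, started 3.20-fold above WT replicate 1, and from 2 h on all 8 libraries lay between 48.5 and 56.0 RPKM. The log2 change against 0 h in WT cells was 1.48, 2.07 and 2.08 ± 0.49 (SE, n = 2 per group) at 1, 2 and 6 h (limma adjusted p = 0.0311, 0.00457 and 0.00762), and at 0.5 h it was 0.96 (limma adjusted p = 0.154). Without WT replicate 1 these changes were 0.98, 1.21 and 1.15 (limma adjusted p = 0.0364, 0.0146 and 0.0249). Without WT replicate 2 they were 1.97, 2.93 and 3.01, and the 0.5 h change of 1.20 also passed (limma adjusted p = 0.0267). In Rel-/- cells the changes were 1.60, 2.28, 2.86 and 2.87 at 0.5, 1, 2 and 6 h (limma adjusted p = 0.0252, 0.00325, 0.000522 and 0.000820). With quantile normalization the WT change at 1 h was 0.95 and the Rel-/- change at 0.5 h was 1.16, and neither passed (limma adjusted p = 0.129 and 0.0781).

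Tbk1, the constitutive kinase of the pair, rose by less than Ikbke and had its highest mean at 6 h in both genotypes. It lies on chromosome 10 at chr10:120983513-121023850, with its nearest neighbour, Xpot, 585 bp away. WT replicates 1 and 2 gave 3.48 and 4.43 RPKM at 0 h, 5.95 and 5.28 at 0.5 h, 4.62 and 5.71 at 1 h, 5.50 and 7.11 at 2 h and 7.40 and 6.83 at 6 h. Rel-/- replicates gave 4.24 and 4.21 RPKM at 0 h, 6.15 and 5.95 at 0.5 h, 5.58 and 5.23 at 1 h, 8.14 and 7.74 at 2 h and 9.63 and 9.13 at 6 h. All stimulated libraries were above the 0 h libraries of their genotype. The increase passed at 2 h (0.66 ± 0.23 in WT and 0.89 ± 0.23 in Rel-/- cells, SE, n = 2 per group) and at 6 h (0.84 and 1.13), with limma adjusted p between 0.00270 and 0.0341. At 0.5 h it was 0.50 and 0.51, and neither passed (limma adjusted p = 0.115 and 0.118). Each passed when libraries were rescaled by the median gene (limma adjusted p = 0.0380 and 0.0407) and with quantile normalization (0.0382 and 0.0315). The Rel-/- value also passed without an expression threshold (limma adjusted p = 0.0488). Without WT replicate 2 the WT change at 0.5 h was 0.76. The WT call at 6 h was lost without WT replicate 1 (limma adjusted p = 0.0579).

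The ratio of Ikbke to Tbk1 changed accordingly. In Rel-/- cells it went from 1.45 and 2.08 at 0 h to 6.72 and 6.87 at 2 h (lower and higher replicate), and in WT cells from 1.96 and 4.93 to 7.10 and 9.58. Without stimulation the higher WT value was that of replicate 2.

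By the RefSeq spans listed with the deposited values, the receptor chains lie 91171 bp apart, from the end of Ifnar2 to the start of Ifnar1. In the GENCODE annotation of the same build Ifnar2 ends at 91419696, within Il10rb, so the distance is shorter there. The chains are part of a cluster on chromosome 16 that spans 191 kb from Ifnar2 (chr16:91373028-91394288) through Il10rb to Ifnar1 (chr16:91485460-91510767) and Ifngr2. Ifnar1 was higher at 6 h than at 0 h in both genotypes, and its level was higher in Rel-/- than in WT libraries at each time point. WT replicates 1 and 2 gave 3.26 and 4.93 RPKM at 0 h, 2.97 and 3.73 at 0.5 h, 4.04 and 7.21 at 1 h, 3.96 and 7.50 at 2 h and 8.23 and 8.83 at 6 h. Rel-/- replicates gave 6.72 and 6.80 RPKM at 0 h, 9.38 and 12.1 at 0.5 h, 10.1 and 9.94 at 1 h, 8.04 and 8.00 at 2 h and 12.5 and 13.4 at 6 h. The genotypes did not overlap at any time point. Ifnar1 was the 1 member of 6 with this pattern, which 1.38% of expressed genes showed (41 of 2980). Both Rel-/- libraries at 0.5 h were already above both at 0 h, by 0.65 log2 units (limma adjusted p = 0.174), which passed without WT replicate 1 (0.0177) or 2 (0.0191) and with a block of each time course (0.0347), and the 2 h libraries were lower again. The change from 0 to 6 h was 1.07 ± 0.34 (SE, n = 2 per group) log2 units in WT and 0.93 ± 0.34 in Rel-/- cells (limma adjusted p = 0.0331 and 0.0453). With quantile normalization the Rel-/- change was 0.58 and did not pass (limma adjusted p = 0.110).

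By time point Ifnar1 was 0.74, 1.65, 0.88, 0.55 and 0.60 log2 units higher in Rel-/- cells at 0, 0.5, 1, 2 and 6 h, each with SE 0.34 and n = 2 per group. The largest, 3.21-fold by the means at 0.5 h with a 95% interval of 1.88-fold to 5.27-fold from the fit, reached a limma adjusted p of 0.0786, and of 0.0217 when blocked on replicate number. The other 4 did not pass in either fit. Without WT replicate 2 the differences at 0.5, 1 and 2 h passed (limma adjusted p = 0.0130, 0.00876 and 0.0368), and without WT replicate 1 the one at 0.5 h did (0.0136). Within replicates 1 and 2 the Rel-/- to WT ratio of Ifnar1 was 2.06 and 1.38 at 0 h, 3.16 and 3.25 at 0.5 h, 2.50 and 1.38 at 1 h, 2.03 and 1.07 at 2 h and 1.52 and 1.52 at 6 h, so it was alike in both at 0.5 and 6 h and higher in replicate 1 at the other times.

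Ifnar2 passed in no comparison with 0 h, and its genotypes overlapped at all 5 time points. WT replicates 1 and 2 gave 2.87 and 4.62 RPKM at 0 h, 2.71 and 2.57 at 0.5 h, 3.34 and 5.13 at 1 h, 3.33 and 6.83 at 2 h and 5.32 and 5.95 at 6 h. Rel-/- replicates gave 4.28 and 4.61 RPKM at 0 h, 2.21 and 2.58 at 0.5 h, 2.61 and 3.64 at 1 h, 4.06 and 5.38 at 2 h and 4.42 and 6.14 at 6 h. All 4 libraries at 0.5 h were below those at 0 h of their genotype. The Rel-/- change at 0.5 h, of -0.87 log2 units, did not pass (limma adjusted p = 0.0878) and passed with the replicate block (0.0177), with only the libraries compared (0.0251) and without WT replicate 1 (0.0204) or 2 (0.0208). No other change of Ifnar2 passed under the alternatives run. The ratio of Ifnar1 to Ifnar2 stayed between 1.07 and 1.55 in the 10 WT libraries and ran from 1.47 to 4.70 in the 10 Rel-/- libraries, with its peak at 0.5 h (4.25 and 4.70).

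**Figure D4:**
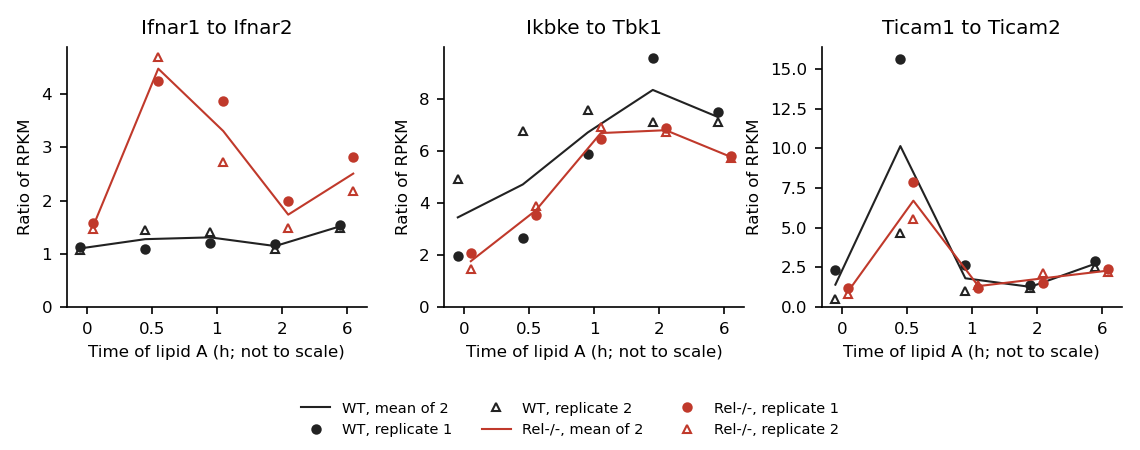
Ratio of RPKM within each library for Ifnar1 to Ifnar2, Ikbke to Tbk1 and Ticam1 to Ticam2 by time of lipid A treatment, on linear axes from 0, with WT in black, Rel-/- in red, replicate 1 as filled circles, replicate 2 as open triangles and lines through the means of 2. The receptor ratio at 0.5 h was 4.25 and 4.70 in Rel-/- cells and 1.10 and 1.45 in WT cells.

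Among the neighbours in the receptor cluster, Il10rb, the second chain of the interleukin-10 receptor, fell in Rel-/- cells by 0.82, 1.63 and 1.05 log2 units at 1, 2 and 6 h (limma adjusted p = 0.0471, 0.000714 and 0.0135) and in WT cells by 0.78 at 2 h (limma adjusted p = 0.0436). Il10rb replicates at 6 h stood at 6.52 and 6.31 RPKM in WT cells, against 3.56 and 4.44 RPKM in Rel-/- cells, the reverse order of Ifnar1. At 6 h both Rel-/- libraries were below both WT libraries for 19.2% of expressed genes, so this order is common. Ifngr2, an interferon-γ receptor chain, passed in no comparison with 0 h, and its log2 change at 6 h was 0.68 in WT and 0.51 in Rel-/- cells. With the replicate block the WT value passed (limma adjusted p = 0.0474).

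Whether loss of Rel altered the loop was asked at each time point and as a difference of induction. Of the 30 genotype comparisons of the 6 expressed members, none passed in limma without the replicate block (Ifnar1 at 0.5 h passed with it, adjusted p = 0.0217), and 2 had an unadjusted p under 0.05, both of Ifnar1 (0.5 and 1 h). Ticam2, tested over all genes, did not pass either, with differences of 0.01, 0.55, 0.57, -0.34 and 0.15 ± 0.58 log2 units (SE, n = 2 per group) at 0, 0.5, 1, 2 and 6 h and a lowest limma adjusted p of 0.712. Without WT replicate 2 its difference at 0.5 h passed (1.40, limma adjusted p = 0.0355), and at 1 h both Rel-/- libraries were above both WT libraries, as for 19.6% of expressed genes. Few genes passed at all: the share of expressed genes called was 0% at 0 h (0 of 2980, with 53 at an unadjusted p under 0.05), 0.134% at 0.5 h, 0.973% at 1 h, 0.839% at 2 h and 0.0336% at 6 h. None of the 24 differences of induction passed either, with none at an unadjusted p under 0.05, and over all expressed genes the share called was 0% at 0.5, 1, 2 and 6 h, with 79, 103, 85 and 44 genes at an unadjusted p under 0.05. In 3 of these 24 (Ifnar1 at 0.5 h, Ifnar2 at 1 h and Ifnb1 at 6 h) both WT replicates changed one way and both Rel-/- replicates the other, which was so for 3.89%, 3.22%, 2.21% and 2.55% of expressed genes at 0.5, 1, 2 and 6 h.

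For Ifnb1 the design left wide intervals. The Rel-/- to WT ratio from the fit had a 95% interval of 0.225-fold to 3.12-fold at 0.5 h, 0.324-fold to 4.49-fold at 1 h, 0.429-fold to 5.95-fold at 2 h and 0.694-fold to 9.62-fold at 6 h. At 6 h both Rel-/- libraries (7 and 8 reads) were above both WT libraries (1 listed read each), as for 24.1% of expressed genes, and mean Ifnb1 was at least 1.85-fold higher against the floor of 3 reads. Intervals were narrower for Tbk1, from 0.742-fold at the lowest bound of any time point to 1.86-fold at the highest, and lay between 0.595-fold and 2.01-fold for Ticam1. They lay between 0.436-fold and 2.09-fold for Ifnar2 and, after stimulation, between 0.454-fold and 2.19-fold for Ikbke. At 0 h Ikbke differed by -0.73 log2 units without passing, which passed without WT replicate 1 (-1.56, limma adjusted p = 0.0246) and was 0.10 higher without WT replicate 2. With 2 libraries against 2, an exact two-sided permutation test cannot go below p = 0.333.

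**Figure D5:**
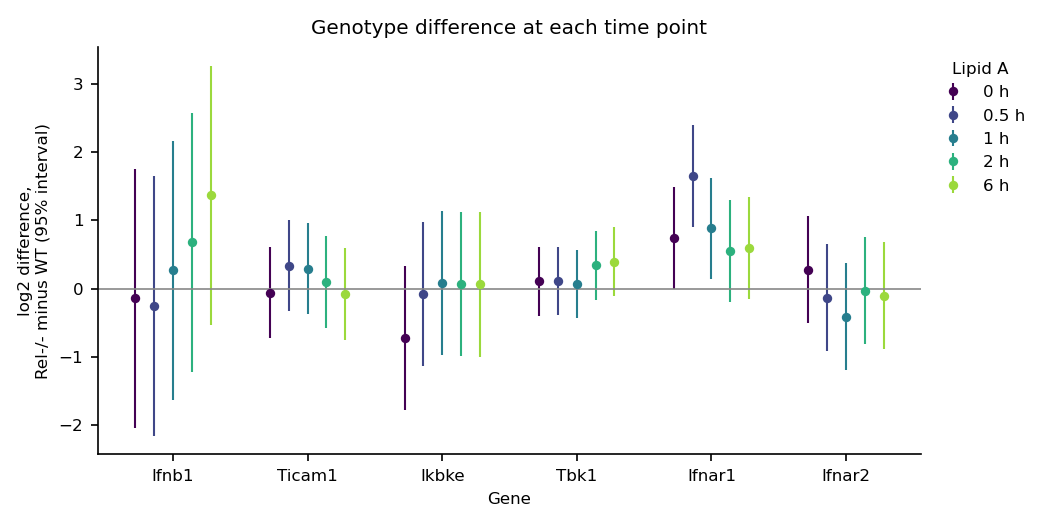
Fitted log2 difference between Rel-/- and WT cells for the 6 expressed members at each of the 5 time points, with 95% intervals from limma on log2(RPKM + 0.1) and n = 2 per group. Ifnar1 lay above 0 at all 5 time points, at 1.65 for 0.5 h, and the Ifnb1 intervals were the widest.

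Genes around the members were taken from fixed lists. Of 9 expressed genes that act with TRIF, 2 rose and 1 fell at 0.5 h in WT cells, and 3 rose and 1 fell in Rel-/- cells. Over all expressed genes 14.1% rose and 16.7% fell in WT and 13.9% rose and 15.6% fell in Rel-/- cells at this time. The median log2 change of the 9 was 0.10 in WT and -0.42 in Rel-/- cells, beside -0.33 and -0.28 over all expressed genes. Tank, a scaffold of TBK1 and IKKε, went from 1.57 and 3.08 RPKM at 0 h to 12.7 and 27.7 RPKM at 0.5 h in WT cells (log2 change 3.04, limma adjusted p = 0.000355) and rose by 3.19 in Rel-/- cells. Optn, another TBK1 adaptor, rose by 2.03 and 2.16. Tbkbp1, the third TBK1 adaptor of the list that passed, went the other way, from 4.42 and 3.34 RPKM to 1.29 and 0.952 RPKM in WT cells (log2 change -1.71, limma adjusted p = 0.00131) and by -1.48 in Rel-/- cells. At 6 h 2 of the 9 rose and 0 fell in WT cells, and 5 rose and 2 fell in Rel-/- cells. In that fit 15.2% and 19.5% of expressed genes rose and 15.6% and 22.8% fell (WT and Rel-/- cells). With the replicate block 5 of the 9 rose and 1 fell in WT cells. The share of expressed genes with the block is not given here, so these blocked counts have none to stand beside.

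Traf3, an E3 ligase that links TRIF to TBK1, rose and then dropped under its starting level. It was at 2.09 and 1.85 RPKM at 0 h, 4.19 and 3.16 at 1 h and 0.746 and 0.291 at 2 h in WT cells, and at 1.66 and 2.06, 5.68 and 6.65, and 0.374 and 0.336 RPKM in Rel-/- cells. The drop at 2 h against 0 h passed in both (log2 change -1.84 and -2.10, limma adjusted p = 0.00149 and 0.000577), and the rise at 1 h passed in Rel-/- cells (1.68, limma adjusted p = 0.00347) and not in WT cells (0.86, limma adjusted p = 0.0828). Irf3, the factor that TBK1 phosphorylates, went from 4.41 and 3.65 RPKM at 0 h to 2.11 and 1.55 RPKM at 6 h in WT cells (limma adjusted p = 0.118, and 0.0277 with the replicate block). In Rel-/- cells its fall passed at 1, 2 and 6 h (by 1.54, 1.53 and 1.44 log2 units, limma adjusted p = 0.0351, 0.0267 and 0.0399).

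Upstream, of 4 expressed TLR4 sensing genes 1 rose and 1 fell at 0.5 h in WT cells and 1 rose in Rel-/- cells, and their median log2 change was -0.78 and -0.64. Over all expressed genes at 0.5 h 14.1% rose and 16.7% fell in WT cells, and 13.9% rose and 15.6% fell in Rel-/- cells. Cd14, the co-receptor that hands lipid A to TLR4, rose by 3.11 log2 units in WT and 2.92 in Rel-/- cells (limma adjusted p = 0.000504 and 0.000856) and had come back by 6 h (0.52 and -0.15, neither passing). Tlr4 itself went from 2.66 and 5.34 RPKM at 0 h to 1.38 and 1.14 RPKM at 0.5 h in WT cells (log2 change -1.52, limma adjusted p = 0.0374), and in Rel-/- cells from 6.57 and 8.44 to 3.57 and 3.03 RPKM (-1.16, limma adjusted p = 0.106). On the MyD88 arm 1 of 4 expressed genes, Irak2, rose at 0.5 h in each genotype, and 3 of 4 were higher at 2 h in WT and 2 of 4 in Rel-/- cells (22.0% and 22.7% of expressed genes were, and the median of the 4 was 1.45 and 1.28 log2 units, beside -0.21 and -0.28 over all). Of 6 expressed Ifnb1 enhanceosome factors, Rela and Nfkb1 rose at 0.5 h in both genotypes, and the coactivator Ep300 fell in both, by 1.63 log2 units in WT and 1.49 in Rel-/- cells (limma adjusted p = 0.00224 and 0.00447). The median of the 6 was 0.42 and 0.01. Of 4 expressed negative regulators, Tnfaip3 (A20) rose at 0.5 h by 5.63 and 5.93 log2 units in WT and Rel-/- cells, and all 4 were higher at 2 h in both genotypes (median 3.97 and 4.51), among them Socs1, an inhibitor of receptor-bound JAK kinases, by 4.57 and 5.38.

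Downstream of the receptor, Stat2 and Tyk2 were higher at 2 and 6 h in both genotypes. Stat2, a transcription factor of the pathway, was at 4.69 and 14.3 RPKM at 0 h in WT cells, the higher value being in replicate 2, and reached 33.8 and 32.9 RPKM at 6 h (log2 change 2.01, limma adjusted p = 0.0226). Tyk2, a receptor-bound kinase, rose by 1.11 at 2 h and 1.47 at 6 h in WT cells and by 1.38 and 1.56 in Rel-/- cells. Irf9 passed at 2 h in WT cells (1.03, limma adjusted p = 0.0393), and in Rel-/- cells its change was 0.89 (limma adjusted p = 0.0636). Jak1, the other receptor-bound kinase, passed at no time point in either genotype, and at 1 h its log2 change was 1.45 in WT and 1.52 in Rel-/- cells (limma adjusted p = 0.0868 and 0.0772, and 0.0190 and 0.0156 with the replicate block).

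The number of interferon-responsive genes called grew from 0.5 to 2 h. At 0.5 h 2 of 12 were higher than at 0 h in each genotype (5 in Rel-/- cells with the replicate block), and at 1 h 6 were in WT and 7 in Rel-/- cells. At 2 h 10 and 12 were, and at 6 h 9 and 12. Without the block, the share of all expressed genes that were higher was 14.1% and 13.9% at 0.5 h (WT and Rel-/- cells). It was 16.3% and 16.6% at 1 h, 22.0% and 22.7% at 2 h and 15.2% and 19.5% at 6 h. The count of 2 at 0.5 h was near that share. The share with the block is not given here, so the count of 5 has none to stand beside. Ccl5, a chemokine, had the lowest p in WT cells at 2 h (log2 change 8.54, limma adjusted p = 2.29e-05). The median log2 change of the 12 was 5.13 in WT and 5.85 in Rel-/- cells at 2 h, beside -0.21 and -0.28 over all expressed genes. Replicates 1 and 2 taken alone gave medians of 6.36 and 3.65 in WT and 6.73 and 4.97 in Rel-/- cells. Cxcl10, a second chemokine, went from 0.410 and 7.94 RPKM to 46.6 and 105 RPKM by 0.5 h in WT cells and from 0.178 and 1.46 to 128 and 69.2 RPKM in Rel-/- cells. Mx1 came later. At 1 h it was still at 2.31 RPKM in WT replicate 1 while replicate 2 stood at 112 RPKM, and at 2 h they were at 213 and 360 RPKM. Irf7, the interferon-induced partner of IRF3, was at 2.96 and 23.6 RPKM at 0 h in WT cells and at 64.6 and 79.3 RPKM at 6 h, a log2 change of 3.07 that did not pass (limma adjusted p = 0.0593, and 0.0251 with the replicate block). In Rel-/- cells it was at 3.02 and 10.5 RPKM at 0 h and at 105 and 66.4 RPKM at 6 h (3.86, limma adjusted p = 0.0184). The WT count at 2 h was higher without WT replicate 1 or 2 and lower without Rel-/- replicate 1 or 2. The share of expressed genes in those fits is not given here, so such counts have none to stand beside.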

How the data were processed

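Chromatin-associated RNA of 20 BMDM libraries was sequenced with a stranded kit. The authors aligned reads to mm9 (NCBIM37, Ensembl annotation) with HISAT and SAMtools and counted reads per gene with SeqMonk, and the deposited RPKM are counts divided by depth and gene span. Whether strand was used in counting is not given in the sources used here. Reads were recovered from the values: 100% of values up to 300 reads were whole within 0.02 reads in each library, and the lowest value was 1 read.

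Group means of log2(RPKM + 0.1) were compared with limma 3.58.1 in R 4.3.3 (empirical Bayes with trend, all 20 libraries, 10 groups, Benjamini-Hochberg, threshold 0.05) over genes with a mean WT RPKM above 3 at any time point. The script was tested on simulated data. No count model was run on the recovered reads. The members were named by the question, and up to 4 genes per list by lowest p, together with fixed pathway genes. Members and lists were chosen with earlier results of these data known. Replicate numbers mark time courses handled in parallel by the study's methods. Same-numbered WT and Rel-/- libraries deviated together (r between 0.136 and 0.472 across genes). Time points of the same genotype did so too, with r from 0.448 to 0.779 in WT and from 0.125 to 0.598 in Rel-/- cells. The fit without a block did not use this, so the replicate block is given where it changed a call. Alternatives comprised other pseudocounts, thresholds and scalings, fits of only the libraries compared, replicate blocks and leaving out each time course. RefSeq promoters (GRCm38.p6) were searched without converting coordinates. The promoter of Ticam2 was not used here, and an item of the receptor signalling list is not reported here. A recovered read is counting evidence only, and depth limited Ifnb1 at 0 and 6 h.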

Additional observations from a re-analysis of the deposited data

Results flagged for a closer look

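In 3 of the 24 comparisons with 0 h of the 6 expressed members, and in none of Ticam2, both WT replicates changed in one direction and both Rel-/- replicates in the other. Between 2.21% and 3.89% of expressed genes did so, depending on the time point. In none of the 3 did the test of that difference pass. Ifnb1 at 6 h changed by -0.08 and -0.24 log2 units in WT replicates 1 and 2 and by 1.43 and 1.28 in Rel-/- replicates, a mean difference of 1.51 (limma adjusted p = 1.00). Ifnar1 at 0.5 h changed by -0.13 and -0.39 in WT and by 0.47 and 0.83 in Rel-/- cells, a difference of 0.91 (limma adjusted p = 1.00). Ifnar2 at 1 h changed by 0.21 and 0.15 in WT and by -0.69 and -0.33 in Rel-/- cells, a difference of -0.69 (limma adjusted p = 0.999). The Ifnb1 case rests on 1 to 8 reads per library.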

How the results depend on the processing

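No call of a member changed direction under any of the 15 alternatives run. Calls over the 6 expressed members were 11 in the WT time course, 12 in the Rel-/- time course, 0 between genotypes, 0 for differences of induction and 5 for steps between time points. Leaving out each time course in turn gave 3 to 14, 0 to 18, 0 to 3, 0 and 0 to 11. With only the libraries compared in the fit, which leaves 2 residual degrees of freedom, the WT count was 1. A pseudocount of 1 RPKM gave 1 genotype call and the replicate block gave 1, each time Ifnar1 at 0.5 h. A replicate block of each time course, which cannot test genotypes, gave 8 step calls. For Ticam2, the steps from 0.5 to 1 h and from 1 to 2 h in Rel-/- cells passed at a threshold of 1 RPKM (limma adjusted p = 0.0480 and 0.0386). Beyond the values printed with the results, the replicate block changed no call of a member. Each group has 2 libraries of pooled marrow. The fit without a block treated the 20 libraries as independent, although libraries of the same time course deviated together. Its p-values therefore do not measure the spread between time courses alone. At 1 or 2 reads, Ifnb1 levels at 0 h and in WT cells at 6 h set only limits.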
